A study of Capra hircus with 12 samples.

Results

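The genes of the NF-κB subunits and of their feedback inhibitors were examined in RNA-seq of cultured goat temporomandibular joint (TMJ) cells. The 10 genes were chosen by name from the 28910 rows of each count table, 5 for subunits (RELA, REL, RELB, NFKB1 and NFKB2) and 5 for inhibitors (NFKBIA, NFKBIB, NFKBIE, NFKBIZ and TNFAIP3). Each of them was held by a single row and had enough counts to be tested in every comparison. The cells came from the superficial layer (SLC) or from the middle cartilage layer (MLC) of the condyles of young female goats obtained at abattoirs, expanded over several passages in DMEM with serum. All 4 groups received IL-1β for an hour, and in the groups labelled IL-1β + LOXL2 the cells had been transduced with an adenovirus carrying LOXL2 (Ad5-LOXL2) the night before. Each group had 3 libraries, 12 in all. No genotype differed between groups, and an empty virus (Ad5-Empty) is named in the study's methods for the flow cytometry of these cells but not for the RNA-seq groups, so effects of LOXL2 and of the virus cannot be told apart. Vehicle-treated cells were not analysed here, so the values describe differences among cells that all had IL-1β and not the response to IL-1β itself. The labels do not say whether the libraries of a group came from separate animals or cultures, and p-values therefore measure the spread between libraries, which may be technical.

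NF-κB is a family of dimeric transcription factors that IκB proteins hold in the cytoplasm of resting cells. Signals such as IL-1β activate the IκB kinase, IκB is degraded, and the freed dimers enter the nucleus and switch on inflammatory genes. Among these genes are those of NF-κB's own inhibitors, IκBα and the ubiquitin-editing enzyme TNFAIP3 in particular, which bring the response to an end, and in cartilage the pathway is known for inducing matrix-degrading enzymes and COX2. Activity is set largely by the location and phosphorylation of the proteins, which RNA counts do not measure.

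The libraries held between 14158607 and 28931652 counts. The LOXL2 gene, examined as a check of the labels, was not higher in the groups labelled IL-1β + LOXL2. Its normalized count (scaled by DESeq2's median of ratios over the 12 libraries, mean ± SD of 3) averaged 11708 ± 165 in SLC given IL-1β alone and 9684 ± 999 after LOXL2, and for MLC the values were 15258 ± 1003 and 14600 ± 731. Whether reads of the viral transgene map to the goat gene is not stated, so the directions given for LOXL2 rest on the labels alone. COL1A1, COL1A2 and COL11A1 were abundant, and ACAN (27.4 to 436 CPM) and SOX9 (12.9 to 93.1 CPM) were present, but the defining cartilage markers COL2A1 and COL9A1 reached at most 20.8 and 19.0 CPM and were at 0 in the lowest library, and the superficial-layer lubricant gene PRG4 lay between 3.80 and 7.28 CPM. Of the 7 macrophage markers, 6 were in the tables, with a summed level of 79.1 to 97.9 CPM with IL-1β and 57.8 to 90.2 CPM with IL-1β + LOXL2 in SLC, and 95.7 to 140.4 and 81.9 to 98.9 CPM in MLC. CD14 made up most of it (49.1 to 132.5 CPM), and PTPRC, the defining leukocyte marker, reached at most 0.10 CPM. The 4 smooth muscle or pericyte markers summed to 873 to 982 CPM with IL-1β and 1132 to 1439 CPM with LOXL2 in MLC, and to 1489 to 1913 and 1653 to 2055 CPM in SLC. The 8 chondrocyte markers in the tables (of 9) summed to 1339 to 1456 and 698 to 1355 CPM in SLC and to 1762 to 1922 and 1449 to 1865 CPM in MLC. Both sums thus did not overlap between the layers in either treatment, and the first did not overlap between the MLC groups. Single genes weighed heavily in both. ACTA2 (799 to 1983 CPM) made up most of the smooth muscle or pericyte sum, and COL11A1 (563 to 1315 CPM) was the largest part of the chondrocyte sum. The 4 osteoblast markers (37.4 to 39.7 CPM with IL-1β in SLC) were lower both with LOXL2 in SLC (25.4 to 36.3 CPM) and with IL-1β in MLC (24.6 to 30.5 CPM), and the 5 endothelial markers, at 5.22 CPM or less, were higher in MLC in both treatments without overlap. The part of these markers in the results was not tested. In bulk samples, fewer cells of a type and less RNA per cell cannot be told apart.

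Libraries differed in the balance of short and long genes. The median log2 deviation of genes spanning under 10000 bases minus that of genes over 100000 bases lay between -0.48 and -0.30 in the SLC IL-1β libraries and was -0.13, 0.78 and 0.48 in replicates 1, 2 and 3 with LOXL2. It lay between -0.27 and -0.18 in the MLC IL-1β libraries and was -0.01, 0.34 and 0.49 with LOXL2. In both layers the first LOXL2 replicate was thus nearest the IL-1β libraries. Of the tested short genes, 75% had a log2 fold change above 0 with LOXL2 in SLC and 74.8% in MLC, and of the long genes 83.2% and 81% had one below 0. Genomic span (introns included, RefSeq annotation of ARS1.2) differed much among the 10 genes, from 3502 bases for NFKBIA (chromosome 21, 45051338 to 45054839) to 125552 bases for NFKB1 (chromosome 6, 22479111 to 22604662), and each LOXL2 effect below was also fitted with every library's trend on gene span removed. The part of span in the results was not tested beyond that fit.

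**Figure D1:**
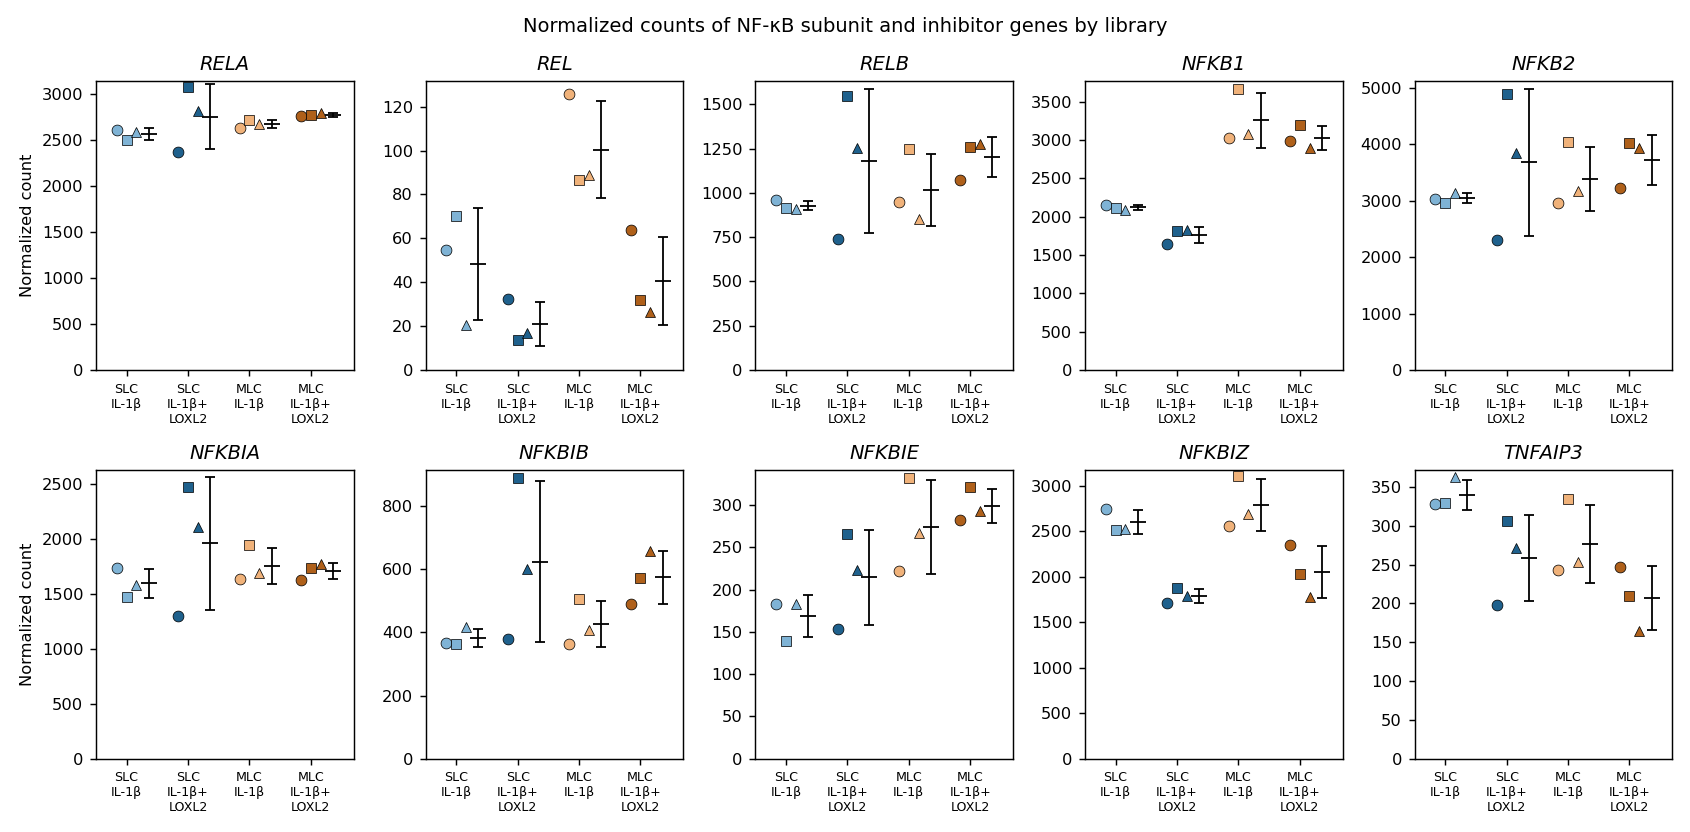
Normalized read counts (y axes from 0, a scale for each gene) of the 10 genes in the 4 groups on the x axes. Circles, squares and triangles are replicates 1, 2 and 3, and the bars give the mean ± SD of 3 libraries. NFKBIZ is lower in all LOXL2 libraries than in the IL-1β libraries of the same layer, RELA is nearly level, and in SLC several genes spread widely within the LOXL2 group, with replicate 1 lowest.

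The first question was whether IL-1β + LOXL2 cells differed from IL-1β cells in the RNA of the subunits. REL, which encodes c-Rel, a subunit best known from lymphocytes, was the one subunit gene of the 5 to pass the threshold, and it did so in MLC, where it was lower with LOXL2. RELA, the main activating subunit of the canonical pathway, was almost the same in every group.

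RELA (chromosome 29, 44246185 to 44255133) had 2606, 2494 and 2590 normalized counts in SLC replicates 1, 2 and 3 with IL-1β and 2372, 3070 and 2808 with IL-1β + LOXL2. The MLC values were 2624, 2717 and 2673 with IL-1β and 2754, 2766 and 2792 with LOXL2. The SLC groups overlapped, while in MLC the LOXL2 libraries all stood slightly above the IL-1β libraries. The log2 fold change was 0.10 (SE 0.12, adjusted p = 0.498) in SLC and 0.05 (SE 0.08, adjusted p = 0.675) in MLC in the quasi-likelihood test of edgeR (Benjamini-Hochberg over all tested genes), and with the span trend removed it was -0.11 and -0.10. Over the 12 libraries the SD of its log2 normalized count was 0.09, and 97.6% of the genes tested in all libraries varied more.

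REL (chromosome 11, 43228119 to 43265438) was the least counted of the 10, with raw counts of 20 to 96 per library. In MLC it had 126, 86.4 and 89.1 normalized counts with IL-1β and 63.7, 31.8 and 26.2 with IL-1β + LOXL2, so that no LOXL2 library reached the lowest IL-1β library. With LOXL2 it fell by 1.29 on the log2 scale in MLC (SE 0.30, adjusted p = 0.0209, edgeR), which is a fold of 0.41. In SLC it had 54.5, 70.2 and 20.4 normalized counts with IL-1β and 32.3, 13.7 and 16.9 with LOXL2, and IL-1β replicate 3 lay inside the LOXL2 range. The SLC log2 fold change was -1.21 (SE 0.51), with an adjusted p of 0.110 in edgeR's test. REL varied most of the 10 genes over the libraries (SD 1.02 on the log2 scale), and only 5.94% of tested genes varied more.

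RELB and NFKB2 encode the partners of the non-canonical pathway, in which the NFKB2 precursor is processed and its product pairs with RELB. RELB (chromosome 18, 53752929 to 53781477) had 958, 916 and 909 normalized counts in SLC with IL-1β and 739, 1546 and 1254 with LOXL2. NFKB2 (chromosome 26, 28653360 to 28661072) had 3031, 2960 and 3145 with IL-1β and 2303, 4895 and 3850.5 with LOXL2 in the same layer. For both genes the first LOXL2 replicate was the lowest of the 6 SLC libraries and the other two LOXL2 replicates were the highest. In MLC, RELB had 947, 1245 and 855 normalized counts with IL-1β and 1073, 1258 and 1277 with LOXL2. NFKB2 had 2965, 4037 and 3164 there with IL-1β and 3222, 4025 and 3931 with LOXL2. The MLC groups overlapped for both genes, and in each the second IL-1β replicate was among the LOXL2 libraries or above them.

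RELB and NFKB2 did not pass the threshold in either layer. The log2 fold change of RELB was 0.35 (SE 0.24, adjusted p = 0.283, edgeR) in SLC and 0.24 (SE 0.14, adjusted p = 0.204) in MLC. That of NFKB2 was 0.28 (SE 0.24, adjusted p = 0.393, edgeR) in SLC and 0.13 (SE 0.13, adjusted p = 0.448) in MLC, and with the span trend removed it was 0.01 and -0.04, while that of RELB was then 0.40 and 0.26. The pair followed each other closely over the 12 libraries. The root-mean-square difference of their centred log2 normalized counts was 0.08, the smallest between any 2 of the 10 genes. The normalized counts are scaled for library depth, but the points share the span balance of each library, which was not removed from this measure.

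NFKB1 encodes the precursor whose processed form is the usual partner of RELA. It had 2153, 2114 and 2093 normalized counts in SLC with IL-1β and 1637, 1808 and 1822 with LOXL2. Its MLC counts were 3024, 3668 and 3073 with IL-1β and 2984, 3202 and 2895 with LOXL2. The SLC groups did not overlap, whereas the MLC groups did. The log2 fold change was -0.27 (SE 0.09, adjusted p = 0.0818, edgeR) in SLC and -0.11 (SE 0.10, adjusted p = 0.438) in MLC. NFKB1 had the longest span of the 10 genes, and with the span trend removed its log2 fold change turned to 0.12 (adjusted p = 0.537) in SLC and 0.15 (adjusted p = 0.318) in MLC.

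**Figure D2:**
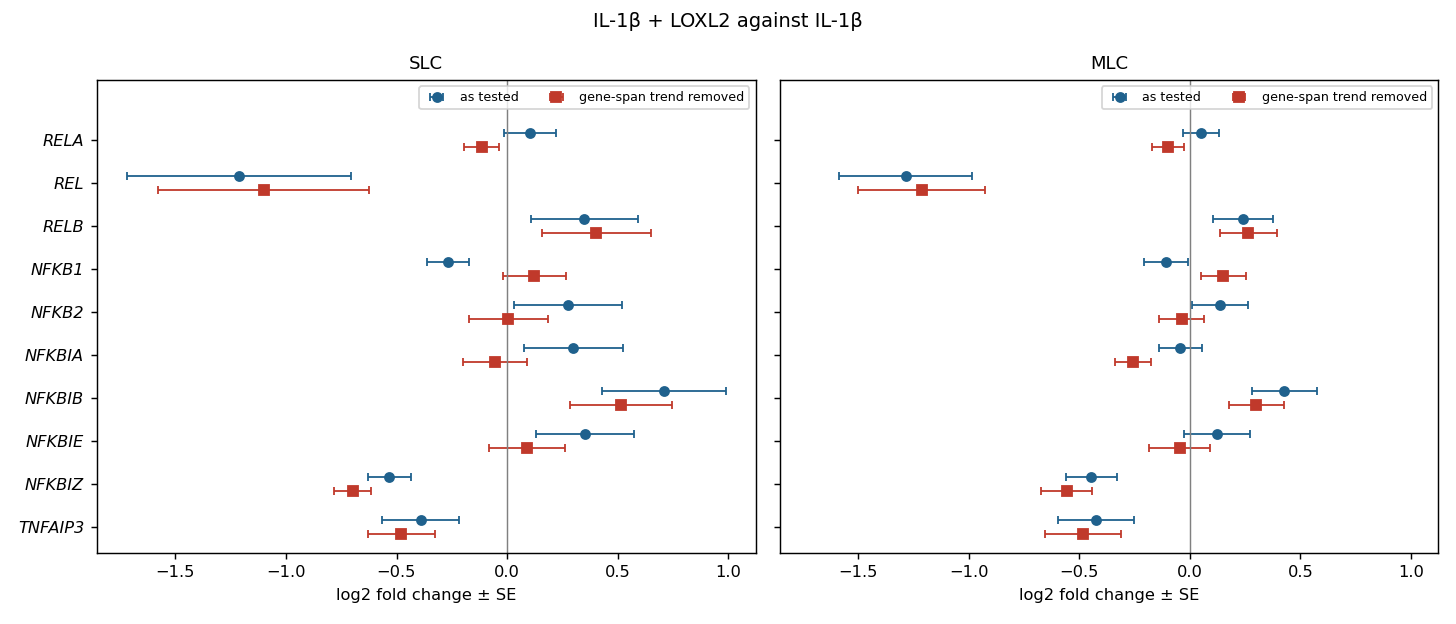
Log2 fold change of each gene between IL-1β + LOXL2 and IL-1β (x axis) in SLC (left) and MLC (right), with bars of ± SE from fits on 6 libraries. Blue circles are the values as tested and red squares those with each library's trend on gene span removed. REL, NFKBIZ and TNFAIP3 stay below 0 in both layers and in both fits, while NFKB1 and RELA move across 0.

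The same comparison was made for the inhibitors. NFKBIZ encodes IκBζ, a nuclear IκB protein that is itself induced by IL-1β and that helps to switch on secondary response genes such as that of IL-6. It was the one gene to pass the threshold among the 5 counted here as inhibitors, and it passed in MLC. In both layers each LOXL2 library had less of it than every IL-1β library. TNFAIP3 had values below 0 in both layers without passing the threshold, and NFKBIA, NFKBIB and NFKBIE did not pass in either.

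NFKBIZ (chromosome 1, 45938670 to 45949908) had 2747, 2515 and 2523 normalized counts in SLC with IL-1β and 1710, 1870 and 1788 with LOXL2. The MLC libraries had 2557, 3104 and 2689 with IL-1β and 2344, 2023 and 1780 with LOXL2. In SLC the lowest IL-1β library stood well above the highest LOXL2 library, and in MLC the gap between the groups was narrow. In MLC it fell by 0.44 on the log2 scale (SE 0.11, adjusted p = 0.0241, edgeR), a decrease of 26.5%. In SLC the log2 fold change was -0.53 (SE 0.10), with an unadjusted p of 0.000706 and an adjusted p of 0.0706 in edgeR's test. With the span trend removed the values were -0.70 (adjusted p = 0.0779) in SLC and -0.56 (adjusted p = 0.0194) in MLC.

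TNFAIP3 (chromosome 9, 62850934 to 62866745), the ubiquitin-editing enzyme that shuts off signalling upstream of the IκB kinase, had 328, 330 and 362 normalized counts in SLC with IL-1β and 197, 306 and 272 with LOXL2. For MLC the values were 243, 335 and 254 with IL-1β and 247, 209 and 164 with LOXL2. The SLC groups did not overlap, while in MLC the first LOXL2 replicate lay above the lowest IL-1β library. Its log2 fold change was -0.39 (SE 0.17, adjusted p = 0.123, edgeR) in SLC and -0.42 (SE 0.17, adjusted p = 0.0892) in MLC. It was -0.48 and -0.49 with the span trend removed.

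NFKBIA (IκBα), the inhibitor that NF-κB rapidly re-induces, had 1734, 1468 and 1580 normalized counts in SLC with IL-1β and 1293, 2474 and 2108 with LOXL2. The MLC counts were 1637, 1943 and 1685 with IL-1β and 1623, 1729 and 1768 with LOXL2. The groups overlapped in both layers, and in SLC the LOXL2 group held both the lowest and the highest libraries. With LOXL2 the log2 fold change was 0.30 (SE 0.22, adjusted p = 0.317, edgeR) in SLC and -0.04 (SE 0.10, adjusted p = 0.771) in MLC. NFKBIA had the shortest span of the 10, and with the span trend removed the values were -0.06 (adjusted p = 0.789) and -0.26 (adjusted p = 0.0534).

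NFKBIB (IκBβ, chromosome 18, 49503947 to 49514858, a span that also holds a tRNA gene) had 368, 363 and 416 normalized counts in SLC with IL-1β and 380, 889 and 603 with LOXL2. In MLC it had 365, 506 and 407 with IL-1β and 490, 573 and 659 with LOXL2. In each layer the first LOXL2 replicate lay within the IL-1β range and the other two above it. The log2 fold change was 0.71 (SE 0.28, adjusted p = 0.0977, edgeR) in SLC and 0.43 (SE 0.15, adjusted p = 0.0522) in MLC, and 0.52 and 0.30 with the span trend removed.

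NFKBIE (IκBε, chromosome 23, 31080921 to 31088539), a slower feedback inhibitor, had 183, 140 and 184 normalized counts in SLC with IL-1β and 154, 266 and 224 with LOXL2. Across the MLC libraries it had 222, 332 and 267 with IL-1β and 283, 322 and 293 with LOXL2. The groups overlapped in both layers. The log2 fold change was 0.35 (SE 0.22, adjusted p = 0.245, edgeR) in SLC and 0.12 (SE 0.15, adjusted p = 0.571) in MLC, and 0.09 and -0.05 with the span trend removed.

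Counted together, 0 of the 10 genes passed the threshold in SLC and 2 passed in MLC, both lower. In SLC, 0% of the 14103 tested genes passed by edgeR's test. At an unadjusted p under 0.05 there were 4 of the 10 (REL, NFKB1, NFKBIB and NFKBIZ) and 6108 of all genes, and DESeq2's Wald test called 3 of the 10 (NFKB1 and NFKBIZ lower, NFKBIB higher) and 30% of all genes. In MLC, 21.6% of 13664 tested genes passed, 11.8% lower, so that 2 of 10 is near the background. DESeq2's Wald test called 3 of the 10 in MLC (NFKBIB higher, 2 lower) and 3293 of all genes. The fit with no filter on low counts also called 3 there (NFKBIB higher, 2 lower), against 3655 of 19942 tested genes. In the joint fit on 12 libraries 41% of all genes passed in SLC and 0% in MLC. Groups did not overlap for 3 of the 10 genes in SLC (NFKB1, NFKBIZ and TNFAIP3, all lower), against 49% of all tested genes in either direction and 25.2% lower, and for 3 in MLC (REL and NFKBIZ lower, RELA higher), against 41.4% in either direction and 19.9% lower. The exact permutation test of 3 against 3 libraries cannot go below 0.1 for any of them. The median log2 fold change of the 10 genes was 0.19 in SLC and 0.0037 in MLC, beside 0.013 and 0.0079 for all genes. The SLC median was 0.36 without the first LOXL2 replicate, 0.021 without the second and -0.025 with the span trend removed, and the MLC median lay between -0.047 and 0.048 when a library was left out.

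The calls changed when single libraries were left out. Without the first SLC replicate with LOXL2, 8 of the 10 genes passed in SLC, against 61.7% of all tested genes. RELB (log2 fold change 0.59), NFKB2 (0.52), NFKBIA (0.52), NFKBIB (0.96) and NFKBIE (0.54) were then higher and REL (-1.67), NFKB1 (-0.23) and NFKBIZ (-0.51) lower. The fits that left out any other SLC library called none of the 10 and 0 of all tested genes. In MLC, REL and NFKBIZ were both called in 1 of the 6 fits that left out a library, the one without the first LOXL2 replicate, in which 5 of the 10 passed (REL, NFKBIZ and TNFAIP3 lower, RELB and NFKBIB higher) against 48.1% of all genes. Only REL passed without the second IL-1β replicate, where 822 of all genes passed. None of the 10 passed without IL-1β replicate 1 or 3 or LOXL2 replicate 2, where 0 of all genes passed. None passed without LOXL2 replicate 3 either, where 474 of all genes did. In those 6 fits the log2 fold change of REL lay between -1.79 and -1.03 and that of NFKBIZ between -0.55 and -0.35. When all 12 libraries were fitted together, none of the 10 passed in MLC and 3 passed in SLC (NFKB1, NFKBIB and NFKBIZ).

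**Figure D3:**
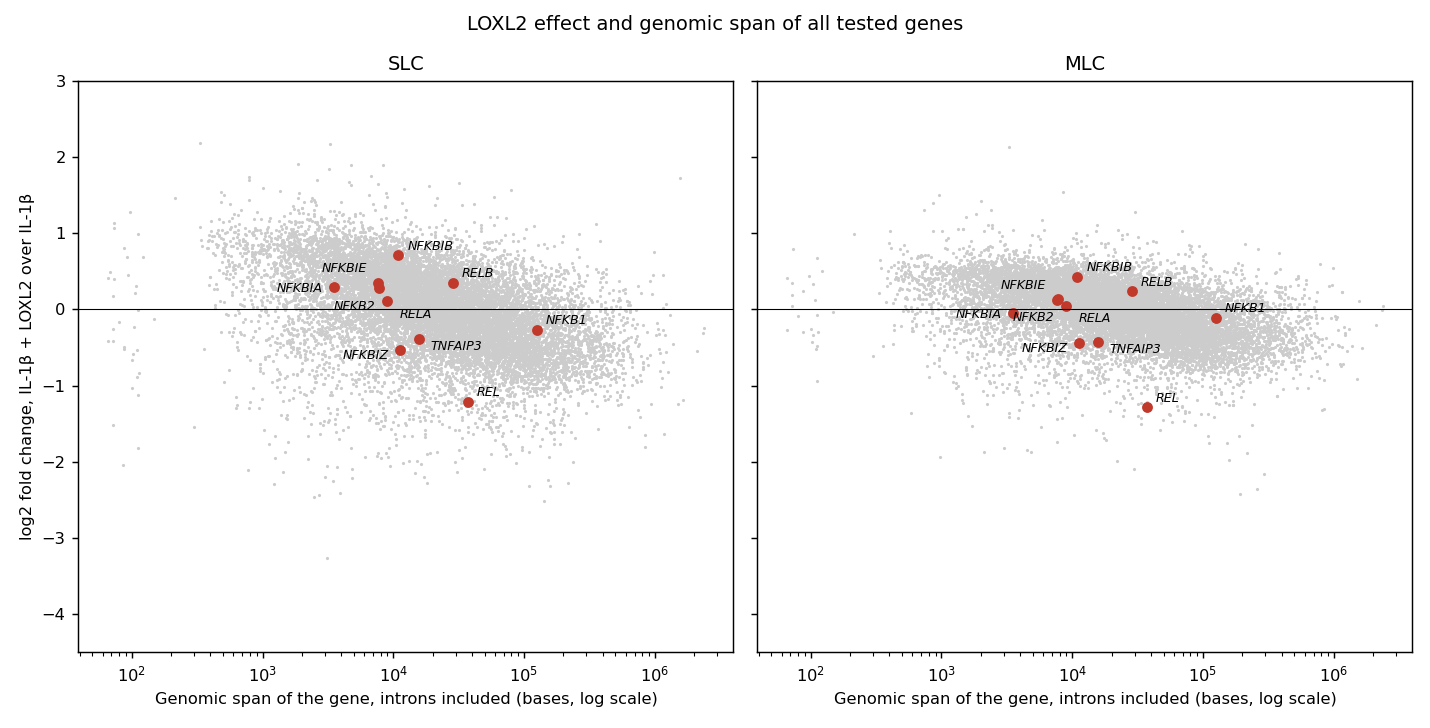
Log2 fold change between IL-1β + LOXL2 and IL-1β (y axis) against the genomic span of each gene in bases (x axis, log scale) in SLC (left) and MLC (right). Grey points are all tested genes with a known span and red points the 10 NF-κB genes. Most short genes lie above 0 and most long genes below it in both layers, and NFKBIZ (-0.53 in SLC, -0.70 with the trend removed) and REL (-1.21 and -1.10) lie below the trend.

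The balance between members was also read within each library, where scaling between libraries plays no part. These ratios were chosen after the values were seen and were not tested, and errors are the SD of 3 libraries. The ratio of NFKBIZ to NFKBIA counts was 1.58, 1.71 and 1.60 in SLC with IL-1β and 1.32, 0.756 and 0.848 with LOXL2. In MLC it was 1.56, 1.60 and 1.60 with IL-1β and 1.44, 1.17 and 1.01 with LOXL2. In both layers all 3 LOXL2 libraries stood below all IL-1β libraries, and the first LOXL2 replicate was the nearest to them. The span of NFKBIA is shorter than that of NFKBIZ (3502 and 11239 bases), and the span balance moved with this ratio in the same libraries. The ratio of NFKB2 to NFKB1 was 1.44 ± 0.06 in SLC with IL-1β and 2.08 ± 0.65 with LOXL2, where the first replicate (1.41) lay within the IL-1β range. The MLC means were 1.04 ± 0.06 and 1.23 ± 0.14, with overlap. The ratio of RELB to RELA was 0.362 ± 0.0095 and 0.421 ± 0.099 in SLC and 0.380 ± 0.071 and 0.434 ± 0.038 in MLC, with overlap in both layers.

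**Figure D4:**
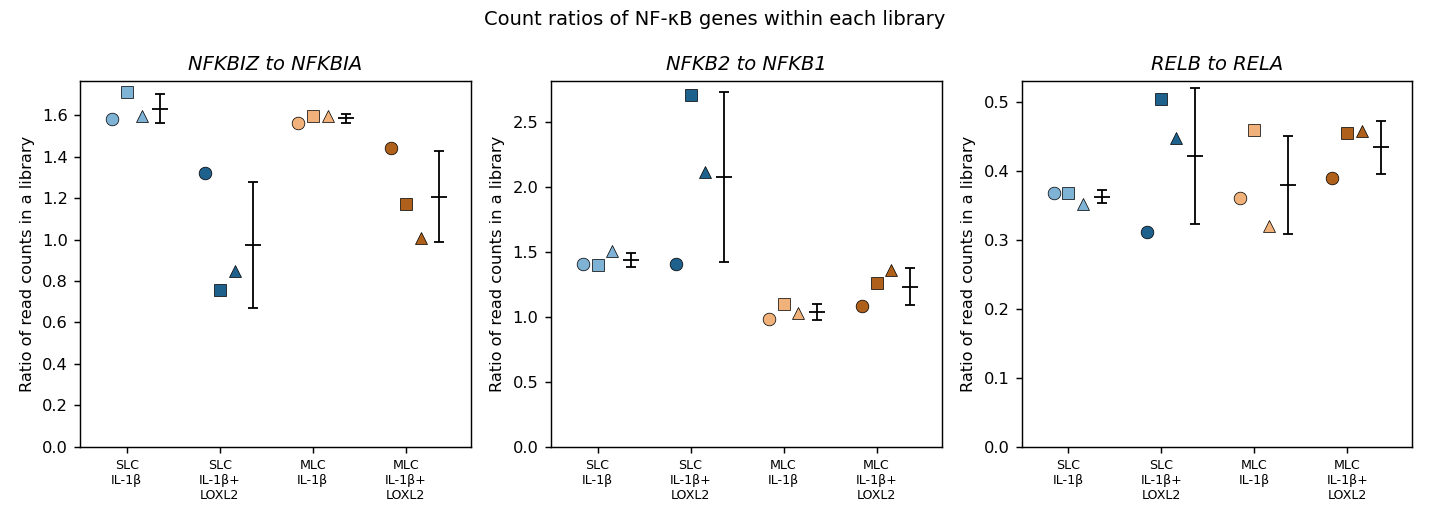
Ratio of the read counts of 2 genes within each library (y axes from 0) in the 4 groups (x axes). Circles, squares and triangles are replicates 1, 2 and 3, and bars are the mean ± SD of 3 libraries. The ratio of NFKBIZ to NFKBIA is lower in every LOXL2 library than in the IL-1β libraries of its layer, and the other ratios overlap between treatments.

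The next question was whether the 2 layers differed under the same treatment. NFKB1 was higher in MLC than in SLC in both treatments, and NFKBIE was higher with IL-1β. The layers were cultured as separate preparations with a count table each, so layer and preparation cannot be told apart. These comparisons used one fit on all 12 libraries.

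With IL-1β, the 3 MLC libraries had 3024 to 3668 normalized counts of NFKB1 and the SLC libraries 2093 to 2153. NFKB1 was 1.55-fold higher in MLC (log2 fold change 0.63, SE 0.09, adjusted p = 0.000306, edgeR). With IL-1β + LOXL2 the MLC libraries had 2895 to 3202 and the SLC libraries 1637 to 1822, and NFKB1 was 1.72-fold higher in MLC (log2 fold change 0.78, SE 0.09, adjusted p = 5.50e-05). It passed the threshold in each of the fits that left out a library, 6 in each treatment, with log2 fold changes of 0.54 to 0.69 with IL-1β and 0.73 to 0.81 with LOXL2. With the span trend removed, the values were 0.74 and 0.75.

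NFKBIE had 222 to 332 normalized counts in MLC and 140 to 184 in SLC with IL-1β, without overlap, and was 1.64-fold higher in MLC (log2 fold change 0.72, SE 0.21, adjusted p = 0.0222, edgeR). It passed in 3 of the 6 fits that left out a library, with adjusted p from 0.0194 to 0.0970. With LOXL2 it had 283 to 322 in MLC and 154 to 266 in SLC, again without overlap, and the log2 fold change was 0.47 (SE 0.20), with an unadjusted p of 0.0362 in edgeR's test and no call after adjustment. REL had more counts in each MLC library than in any SLC library with IL-1β (86.4 to 126 against 20.4 to 70.2), with a log2 fold change of 1.06 (SE 0.42, adjusted p = 0.0895, edgeR). With LOXL2 the log2 fold change of REL was 0.98 (SE 0.48, adjusted p = 0.153) and the groups overlapped.

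The other 7 genes did not pass between the layers. Their log2 fold changes lay between -0.28 (TNFAIP3) and 0.17 (NFKBIB) with IL-1β and between -0.33 (TNFAIP3) and 0.19 (NFKBIZ) with LOXL2. In all, 2 of 10 genes passed with IL-1β, against 25.6% of 14534 tested genes (14.2% higher in MLC), and 1 of 10 with LOXL2, against 28.9% (14.6% higher). Groups did not overlap for 4 of the 10 with IL-1β (RELA, REL, NFKB1 and NFKBIE, all higher in MLC), against 55.1% of tested genes (26.5% higher), and for 2 with LOXL2 (NFKB1 and NFKBIE), against 34.9% (18% higher). The 2 treatment comparisons share no library, but both were drawn from one estimate of spread.

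**Figure D5:**
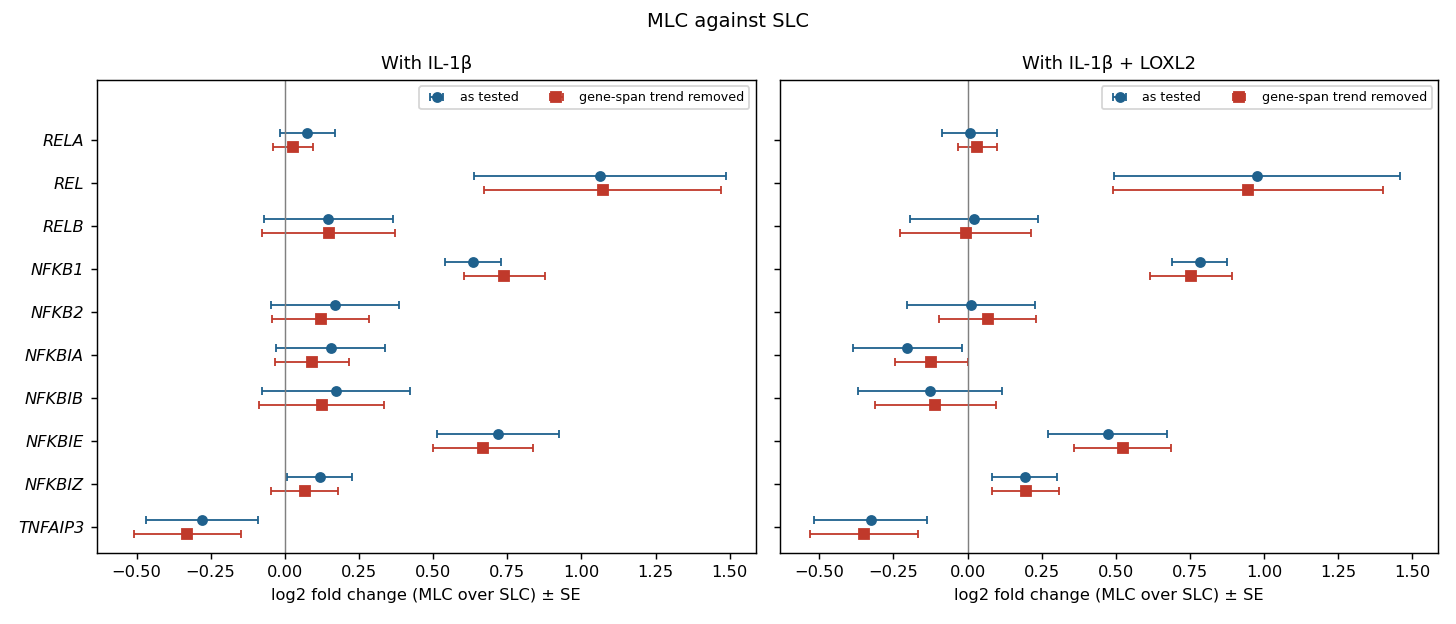
Log2 fold change of each gene between MLC and SLC (x axis, positive where MLC is higher) with IL-1β (left) and with IL-1β + LOXL2 (right), with bars of ± SE from the fit on 12 libraries. Blue circles are as tested and red squares have the trend on gene span removed. NFKB1 lies between 0.63 and 0.78 with narrow bars in both panels, and REL lies near 1 with wide bars.

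The levels of a gene can be ordered over the 4 groups. The means of NFKB1 ran from 1756 ± 103 normalized counts (SD, n = 3) in SLC with LOXL2 through 2120 ± 30.6 in SLC with IL-1β and 3027 ± 158 in MLC with LOXL2 to 3255 ± 358 in MLC with IL-1β, and the last pair of neighbours overlapped. Those of NFKBIZ ran from 1789 ± 79.6 in SLC with LOXL2 through 2049 ± 283 in MLC with LOXL2 and 2595 ± 132 in SLC with IL-1β to 2784 ± 285 in MLC with IL-1β, so that the treatments and not the layers were neighbours, and the libraries of both neighbouring pairs of the same treatment overlapped. Those of TNFAIP3 ran from 207 ± 41.4 in MLC with LOXL2 through 258 ± 55.6 in SLC with LOXL2 and 277 ± 50.3 in MLC with IL-1β to 340 ± 19.4 in SLC with IL-1β, and each neighbouring pair overlapped. Levels were not compared between genes, since transcript lengths were not used here.

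Whether the LOXL2 effect differed between the layers was tested directly as an interaction in all 12 libraries. It passed for 0 of the 10 genes and 0% of 14534 genes by edgeR's test, with 0 of the 10 and 328 of all genes at an unadjusted p under 0.05, and DESeq2's Wald test called 0 genes as well. The difference of log2 fold changes (MLC minus SLC) ranged from -0.36 for NFKBIA (SE 0.26) to 0.15 for NFKB1 (SE 0.13). For NFKBIZ it was 0.07 (SE 0.15), for TNFAIP3 -0.05 (SE 0.27) and for REL -0.08 (SE 0.66). The SE of REL leaves room for a difference as large as its effect in either layer, and a p that misses the threshold does not show that the layers responded alike. That REL and NFKBIZ passed in MLC and not in SLC is therefore not a shown difference between layers.

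The rest of the pathway was described with lists of genes that hold none of the 10. The first, called the upstream list, held 27 genes of the IκB kinase, its upstream adaptors and the ligase that marks IκB for degradation. All were tested, and with LOXL2 none passed in SLC and 2 passed in MLC, both lower, a smaller share than the 21.6% of all genes. These were TAB3 (log2 fold change -0.56, adjusted p = 0.0256, edgeR) and TAB2 (-0.36, adjusted p = 0.0386), adaptors that bring the kinase TAK1 to ubiquitin chains. In SLC the largest values were -0.69 for TAB3 and 0.60 for SHARPIN, a subunit of the linear ubiquitin ligase, neither past the threshold. The median of the list was 0.03 in SLC and 0.0021 in MLC. With the span trend removed, 1 gene of the list passed in MLC, and it was higher, against 1816 of 13664 tested genes. None passed in MLC in the fit on 12 libraries, where 0% of all genes passed. None passed in 5 of the 6 fits that left out a library, against 0 to 822 of all genes. Without the first LOXL2 replicate 15 passed (5 higher, 10 lower), against 48.1% of all genes. In SLC, 16 passed (7 higher, 9 lower) without the first LOXL2 replicate, against 61.7% of all genes, and 8 in the fit on 12 libraries, against 41%.

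Of 20 other inhibitors of the pathway, none passed in SLC, while 3 were higher and 3 lower in MLC, where 21.6% of all genes passed. N4BP1, a suppressor of NF-κB signalling, fell by 0.90 on the log2 scale (adjusted p = 0.0190, edgeR) and ITCH, a ubiquitin ligase that works with TNFAIP3, by 0.47 (adjusted p = 0.0256). COMMD1, which promotes the turnover of RELA, was higher by 0.49 (adjusted p = 0.0336) and NFKBIL1, an IκB-like gene, by 0.46 (adjusted p = 0.0340). In SLC the largest values were -1.33 for N4BP1 and 0.93 for NFKBIL1, neither past the threshold. The SLC median was 0.21 and the MLC median 0.05. With LOXL2 in MLC, 3 of these inhibitors passed with the span trend removed (1816 of all genes) and none in the fit on 12 libraries (0%). Without the first LOXL2 replicate 10 passed, against 48.1% of all genes. Just 1 passed without IL-1β replicate 2 or LOXL2 replicate 3 (822 and 474 of all genes). None passed without any of the other 3 libraries (0 of all genes). In SLC, 14 passed without the first LOXL2 replicate (9 higher, 5 lower), against 61.7% of all genes. The SLC fit on 12 libraries called 10 (6 higher, 4 lower), against 41% of all genes.

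Of 28 known NF-κB target genes, 26 were in the tables and 22 were tested with LOXL2. None passed in SLC and 4 passed in MLC, all lower, where 21.6% of all genes passed and 11.8% were called lower. These were PTGS2, which encodes COX2 (log2 fold change -0.71, adjusted p = 0.0207, edgeR), the cytokine LIF (-0.45, adjusted p = 0.0306), and the receptor-proximal signalling genes BIRC3 (-0.36, adjusted p = 0.0439) and TRAF1 (-0.36, adjusted p = 0.0357). In SLC the largest values were -1.09 for PTGS2 and -0.79 for LIF, neither past the threshold. The median was -0.06 in SLC and -0.21 in MLC, and single libraries turned both. In SLC it was 0.21 without the first LOXL2 replicate, 0.015 without IL-1β replicate 3 and -0.25 without LOXL2 replicate 2. In MLC it was 0.059 without IL-1β replicate 2, with 14 genes above 0 and 8 below, and between -0.32 and -0.19 in the other 5 such fits. As for the members, these MLC calls changed when a library was left out. In 5 of the 6 fits that left out an MLC library 0 of the 22 passed, against 0 to 822 of all genes. Without the first LOXL2 replicate 7 passed, 2 of them higher, against 48.1% of all genes. With the span trend removed, 6 of the 22 passed in MLC (1 higher, 5 lower), against 1816 of 13664 tested genes. The MLC median was then -0.26, with 5 genes above 0 and 17 below. DESeq2's Wald test and the replicate block each called 6 as well (1 higher, 5 lower), against 3293 and 4053 of all genes. None passed in MLC in the fit on 12 libraries, where 0% of all genes passed. In SLC, 13 passed without the first LOXL2 replicate (8 higher, 5 lower), against 61.7% of all genes. The SLC fit on 12 libraries called 6 (1 higher, 5 lower), against 41% of all genes.

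Between the layers, the same target list held the most calls of the 3 lists. The lists were chosen with earlier results of these data known, so this order is a description only. With IL-1β, 9 of the 22 tested were higher in MLC and 2 lower, with a median of 0.39 beside -0.0097 for all genes, of which 25.6% passed and 14.2% were higher. The 9 higher calls became 5 without SLC IL-1β replicate 1 or 2 or MLC IL-1β replicate 2 and 6 without SLC IL-1β replicate 3, while the 2 lower calls stayed 2 in number and the median lay between 0.33 and 0.44 in the 6 fits that left out a library. All genes had 2600 to 3044 calls in those 6 fits, beside 3715 in the main fit. The largest log2 fold changes with IL-1β were those of MMP3 (5.19), MMP13 (2.98), the growth factor CSF2 (2.48) and PTGS2 (2.30), with adjusted p from edgeR of at most 0.00369. With LOXL2, 8 were higher and 3 lower, where 28.9% of all genes passed and 14.6% were higher. Those higher were led by MMP3 (4.95), CSF2 (2.90), PTGS2 (2.66) and the chemokine CCL5 (1.96). Without the first SLC LOXL2 replicate 9 targets were higher and 6 lower, and 6812 of 14718 tested genes passed. Of the upstream list, 2 were higher and 2 lower with IL-1β, among them MAP3K14 (0.60), the kinase that starts NFKB2 processing, and RIPK1 (0.30) on the higher side and TAB2 (-0.53) and BTRC (-0.49), part of the ligase that marks IκB for degradation, on the lower side. With LOXL2, 2 of that list were higher and 4 lower, and 5 and 6 without the first SLC LOXL2 replicate (6812 of all genes). These were 2 and 1 without SLC LOXL2 replicate 3 or MLC LOXL2 replicate 3, and 2 and 2 without any of the others. All genes had 3150 to 3814 calls in the fits that kept the first SLC LOXL2 replicate and left out another library. Of the other inhibitors, PDLIM2 was higher in MLC with IL-1β (1.30) and TNIP3 (-2.22) and TRAFD1 (-0.59) lower, and with LOXL2 there were 1 higher and 4 lower, with the total of 5 becoming 8 without the first SLC LOXL2 replicate and 3 or 4 without any other library. Fits were also made on only the 6 libraries compared. With IL-1β the calls were 12 of 27 upstream genes, 10 of 20 other inhibitors and 13 of 21 targets. All genes then had 6548 calls of 13965 tested. With LOXL2 the list calls were 2, 3 and 7, and all genes had 2268 calls of 14085 tested. RELA itself differed between the layers by 0.08 (SE 0.09) with IL-1β and 0.01 (SE 0.09) with LOXL2.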

How the data were processed

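Raw counts of reads per goat gene, 1 table for each layer, were deposited by the authors, who trimmed the read pairs of mRNA captured with poly-T beads, mapped them to ARS1.2 and counted them (HISAT2 and featureCounts in the submitters' processing notes). Settings for strand and for reads with several positions are not given in the sources used here, so counts of overlapping genes or near-identical copies are uncertain. No row lacked a gene. The 10 members and the pathway lists were chosen with earlier results of these data known. From the lists, up to 4 genes with the largest absolute log2 fold change past the threshold were named, or the 2 largest where none passed.

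Genes were tested on the counts with edgeR 4.0.16 (R 4.3.3) by glmQLFTest after TMM scaling and filterByExpr (at least 10 counts, 15 in total; Benjamini-Hochberg adjustment over all tested genes, threshold 0.05), for LOXL2 in the 6 libraries of a layer and for layers and the interaction in all 12. SE was taken as log2 fold change over √F. Normalized counts and the alternative Wald test are from DESeq2 1.42.0. The study used DESeq2. The span trend was each library's lowess (R's own function, span 0.3) of log2 CPM on log10 span, given to edgeR as an offset. Pattern likeness used log2(normalized count + 1). Other alternatives were DESeq2's size factors, no filter on low counts, a replicate block, other sets of libraries in the fit and each library left out. Scripts were tested on simulated data.

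Same-numbered libraries deviated together in 1 comparison, MLC against SLC with LOXL2 (correlations of deviations over genes 0.61, 0.21 and 0.17). Differently numbered pairs in that comparison lay between -0.57 and 0.45, the highest being SLC replicate 2 with MLC replicate 3. The numbers are not said to mark a shared animal or day, and the block changed no call among the 10 genes in that comparison. Replicates all differed beyond counting noise (chi-square of at least 2.23 per degree of freedom). The 3 pairs of SLC LOXL2 libraries had 159, 58.1 and 29.2, the first 2 of them with replicate 1. Coordinates and spans are from RefSeq's annotation of ARS1.2, and 28884 of the 28910 rows matched a RefSeq symbol.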

Additional observations from a re-analysis of the deposited data

How the results depend on the processing

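Of the log2 fold changes of the 10 genes over 5 comparisons, 266 kept direction and call under the settings that kept all libraries, 9 turned, 13 passed only there and 2 passed only in the main fit. With the span trend removed the turned values were, for LOXL2, RELA -0.11, NFKB1 0.12 and NFKBIA -0.055 in SLC and RELA -0.10, NFKB1 0.15, NFKB2 -0.037 and NFKBIE -0.046 in MLC, RELB -0.0060 between layers with LOXL2 and RELA 0.0045 in the interaction. That setting gave 1816 genes for LOXL2 in MLC. Between layers with LOXL2 it gave 2 of the 10 (NFKB1 and NFKBIE) and 4965 of 14534 tested genes. With DESeq2's Wald test, 4234 genes and 3 of the 10 passed for LOXL2 in SLC. In the fit on 12 libraries these were 5965 and 3 in SLC and 0 and 0 in MLC (3728 genes and 3 of the 10 at an unadjusted p under 0.05). With only the 6 libraries compared, 6548 genes differed between layers with IL-1β and 2268 with LOXL2. With a replicate block, 4 of the 10 passed for LOXL2 in MLC (REL, NFKBIB, NFKBIZ and TNFAIP3), as did 4053 of 13664 tested genes. REL passed between layers with IL-1β (adjusted p = 0.0265, edgeR), where 4013 of 14534 genes passed. No other call among the 10 changed. Same-numbered libraries did not all deviate together for LOXL2 in SLC (0.03, -0.23, 0.12) or MLC (0.08, 0.11, -0.05) or between layers with IL-1β (-0.05, -0.09, -0.05). With each library left out, the 10 genes gave 0 to 8 calls for LOXL2 in SLC and 0 to 5 in MLC, and all genes 0 to 8849 and 0 to 6653. Between layers it was 1 to 2 of the 10 and 2600 to 3044 genes with IL-1β. With LOXL2 it was 1 to 4 of the 10 and 3150 to 6812 genes, the 4 without the first SLC LOXL2 replicate. The interaction gave 0 to 1 genes. Log2 fold changes that turned in these fits ranged, for LOXL2 in MLC, from -0.088 to 0.035 (NFKBIA) and -0.0050 to 0.28 (NFKBIE), between layers with IL-1β from -0.022 to 0.26 (RELB), between layers with LOXL2 from -0.091 to 0.095 (RELA), -0.23 to 0.27 (RELB), -0.24 to 0.27 (NFKB2), -0.43 to 0.0027 (NFKBIA) and -0.39 to 0.22 (NFKBIB), and in the interaction from -0.17 to 0.020 (RELA), -0.59 to 0.36 (REL), -0.37 to 0.12 (RELB), -0.41 to 0.10 (NFKB2), -0.56 to 0.051 (NFKBIB), -0.028 to 0.17 (NFKBIZ) and -0.21 to 0.11 (TNFAIP3). The cause was not tested. REL had the fewest counts of the 10 genes, 20 to 96 a library, and the largest SE in each main comparison. The part of depth in its SE was not tested.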

Other observations

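The genes whose patterns over the 12 libraries were most like those of a member were sought by the root-mean-square difference of centred log2 normalized counts. For NFKBIA they were PHF11 (0.09), WTAP (0.10) and C16H1orf174 (0.10). For TNFAIP3 they were PDE4B, which encodes a cyclic AMP phosphodiesterase (0.09), SUSD6 (0.13) and RNF144A (0.15). For NFKB1 they were EXT1, a heparan sulfate polymerase (0.08), SLC41A1 (0.09) and FAS, the death receptor (0.10). For RELA, which hardly varied, they were ORAI2, UBTF and SMARCD2 (each 0.05). The nearest member to TNFAIP3 was NFKBIZ at 0.27 and the nearest to NFKBIE was NFKB2 at 0.27. The normalized counts are scaled for library depth, but the 12 points share the balance of short and long genes, which was not removed.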
